A study of Mus musculus with 48 samples.

Results

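Transcript levels in the left ventricle of isolated mouse hearts were compared between 48 and 32 weeks of age after ischaemia and reperfusion (I/R). The comparison rests on 12 of the 48 arrays of the series, 6 hearts of 48-week mice and 6 hearts of 32-week mice, 1 array per heart, chosen by the labelled age and treatment. All mice were males of the C57BL/6 strain that had been bought at 7 weeks of age. Under pentobarbital anaesthesia each heart was removed and perfused with buffer by the Langendorff method. It was stabilised for 20 min, deprived of flow for 25 min at normal temperature and reperfused for 45 min. The other hearts of the series were I/R hearts of 8 and 16 weeks, and hearts of all 4 ages kept on oxygenated buffer throughout, time-matched (normoxic hearts), again 6 per group. The model is a denervated, blood-free heart sampled early in reperfusion. In such bulk tissue, fewer cells of a type and less RNA per cell cannot be told apart.

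When flow stops, the heart muscle loses oxidative ATP production, ions and calcium are redistributed, and proteins misfold. On reperfusion, oxygen returns with a burst of reactive oxygen species, and surviving cells switch on chaperones, the unfolded protein response of the endoplasmic reticulum (ER) and immediate early and inflammatory genes. Mitochondrial respiration, fed mainly by fatty acids, is both the main consumer of the returning oxygen and a main site of injury. The comparison asks which transcripts of the reperfused ventricle differ between the 32nd and the 48th week, when mice pass from mature adulthood into middle age.

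Of 7356 genes tested, 749 passed the threshold (limma, Benjamini-Hochberg adjusted p under 0.05), which is 10.2% of all genes. Of these, 306 were higher (4.16%) and 443 lower (6.02%) in 48-week than in 32-week I/R hearts. The lower genes had the larger differences: their median was -0.64 on the log2 scale, and 68 of them differed by more than 1 log2 unit, against a median of 0.36 and 5 genes among those higher. They included the stress chaperone gene Hsp90aa1, the ER chaperone gene Hspa5 and the fatty acid transporter gene Cd36. Some genes of the respiratory chain, the proteasome and the extracellular matrix were also lower, but these lists as a whole were not. Their medians were 0.04 log2 units for complex I, 0.06 for complexes II to V, 0.08 for the proteasome and 0.09 for the matrix. The split between directions depended on the scaling of the arrays. With arrays centred on their medians in place of quantile normalization, 9 genes were higher and 547 lower, and the median of all genes moved to -0.10 from 0.04 log2 units. With only the 12 compared arrays in the fit, 127 were higher and 367 lower. For 370 genes (5.03%) the hearts of the 2 ages did not overlap.

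Arrays of the 48-week hearts detected 11072 to 12396 probes and those of the 32-week hearts 11157 to 13662 (exact two-sided permutation test of the means, p = 0.0736). The RNA integrity number (RIN) was 7.60 ± 0.110 (SD, n = 6) at 48 weeks and 7.75 ± 0.226 (SD, n = 6) at 32 weeks (exact p = 0.223). The background signal did not separate the ages either (means 165.9 and 165.4, exact p = 0.948). The part of these differences in the results was not tested beyond a fit with RIN as a covariate, which called 646 genes. All 14 cardiomyocyte markers were detected, and their summed level overlapped between the ages. No marker of neutrophils, of T, B and NK cells or of mast cells was detected. The summed levels of markers of fibroblasts, endothelial cells, smooth muscle cells and pericytes, macrophages and atrial cardiomyocytes also overlapped. Defining markers that were not detected included Tcf21 and Postn for fibroblasts and Kdr for endothelial cells. The 2 detected adipocyte markers, Cidea and Scd1, summed to 1248 to 1511 intensity units in 48-week hearts, against 1052 to 1110 in 32-week hearts. Taken singly, Scd1 overlapped between the ages and did not pass (0.30 log2 units, limma adjusted p = 0.578). Cidea did not overlap, but did not pass with median centring (limma adjusted p = 0.171). The adipocyte markers Adipoq, Lep, Plin1 and Fabp4 were not detected.

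The largest differences were decreases. Hsp90aa1, the stress-inducible cytosolic HSP90, lay at 5.26, 5.47 and 5.99 (lowest, median and highest of 6 hearts, log2 intensity) at 48 weeks and at 7.22, 7.29 and 8.29 at 32 weeks. Its probe was detected in none of the 48-week and in all 6 of the 32-week hearts, so that it was at least 2.88-fold lower at 48 weeks (adjusted p = 2.78e-12). Higd1a, a hypoxia-induced protein of the inner mitochondrial membrane, had the same pattern of detection. It lay at 5.04, 5.56 and 5.76 at 48 weeks and at 6.92, 7.11 and 7.75 at 32 weeks, at least 2.29-fold lower at 48 weeks (adjusted p = 1.95e-10). Laptm4b, a membrane protein of late endosomes and lysosomes, was likewise detected in none of the 48-week and in all 6 of the 32-week hearts (at least 1.95-fold lower, adjusted p = 3.04e-08). None of these 3 genes had values that overlapped between the ages, but their 48-week values were not above background. They met the detection filter and the rule for naming genes through the 32-week hearts alone.

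**Figure D1:**
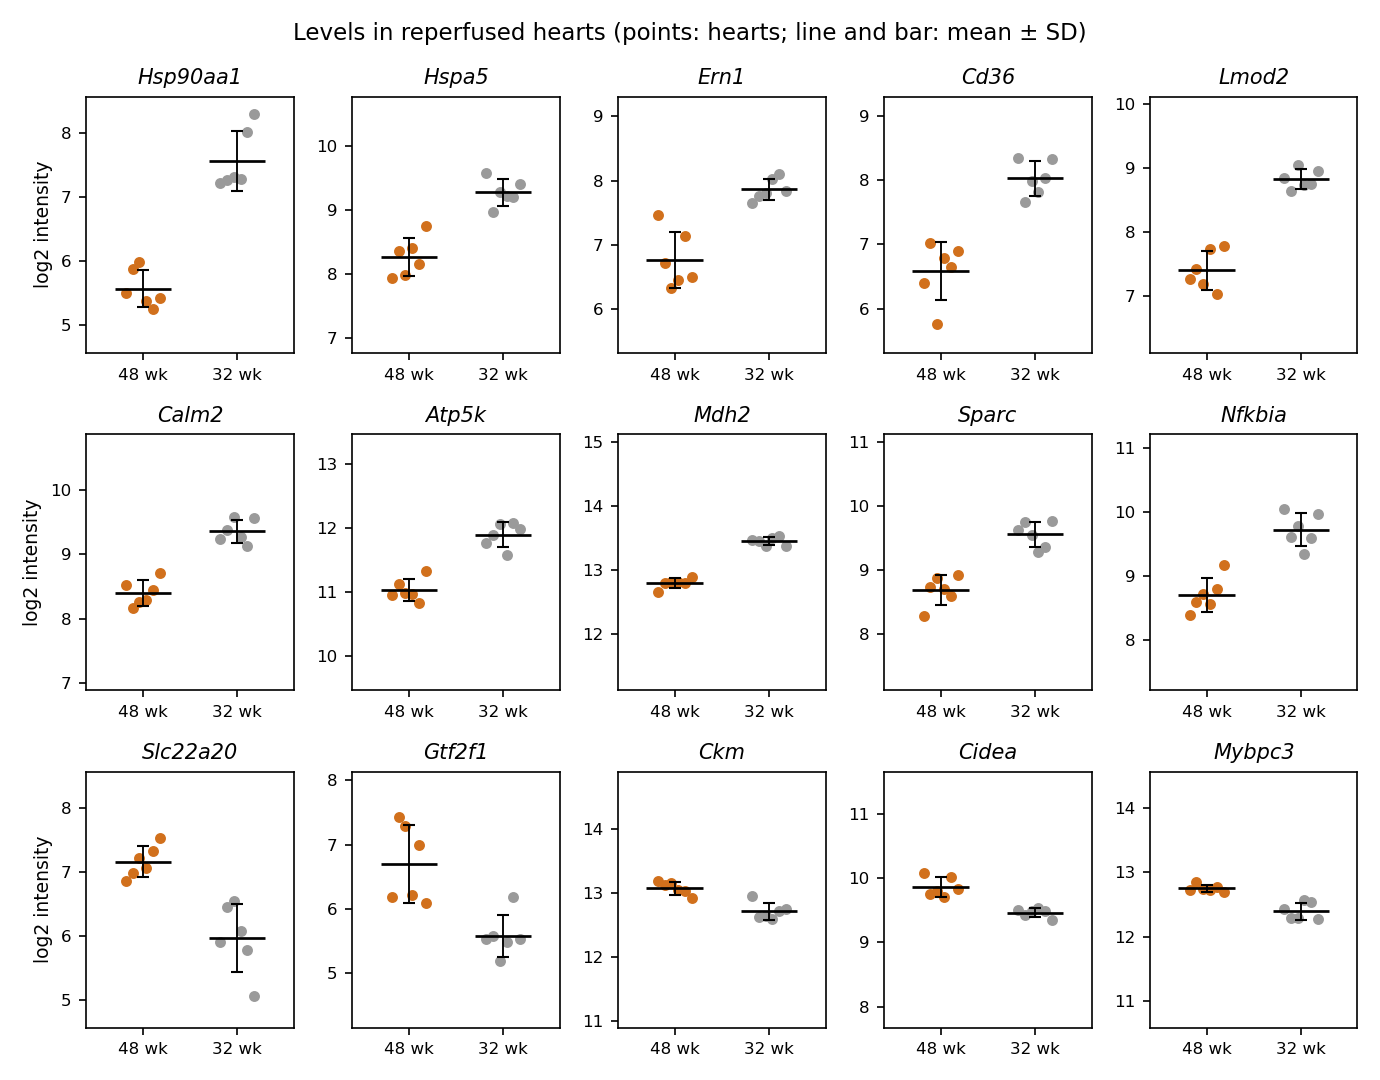
Levels of 15 genes in reperfused hearts. Each point is a heart, the horizontal line and bar are the mean ± SD of 6 hearts, the vertical axes are log2 intensity and each spans 4 log2 units. The first 10 genes are lower at 48 weeks (orange) than at 32 weeks (grey) with no overlap, and the other 5 are higher at 48 weeks, by 1.19 log2 units for Slc22a20 and by 0.36 for Mybpc3.

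Among the other 11 of the 14 largest decreases, Cd36, which carries fatty acids into the muscle cell, lay at 5.76, 6.72 and 7.02 at 48 weeks and at 7.66, 8.01 and 8.36 at 32 weeks (log2 fold change -1.44 ± 0.22 SE, adjusted p = 5.77e-06). Its 1 probe on the array was detected on 2 of the 12 normoxic arrays of these ages, with means of 5.27 at 48 and 5.22 at 32 weeks. How well this probe reports the Cd36 transcript was not tested. Lmod2, leiomodin, which elongates the thin filaments of the sarcomere, lay at 7.02, 7.34 and 7.77 at 48 weeks and at 8.63, 8.79 and 9.03 at 32 weeks (-1.42 ± 0.20, adjusted p = 2.10e-06). For both, every 48-week heart was below every 32-week heart. Bptf, the large subunit of the chromatin remodeller NURF, differed by -1.55 log2 units, Pom121, a nuclear pore protein, by -1.44, and Tjp1, the tight junction protein ZO-1, by -1.37. The remaining genes were C8b, a component of the complement attack complex, at -1.68, Tanc1 at -1.60, R3hdm2 at -1.57, the kinase gene Hipk1 at -1.47, Gramd4 at -1.44 and the ribosomal protein paralogue Rpl22l1 at -1.38. The hearts of the 2 ages overlapped for Rpl22l1 and Tjp1 and for none of the other 9. All 11 probes were detected in all 6 hearts at 32 weeks, but most were missed in some hearts at 48 weeks. Those of Bptf, Pom121 and Rpl22l1 were detected in 1 of 6 hearts at 48 weeks. Those of Tanc1, R3hdm2, Hipk1, Gramd4 and Tjp1 were detected in 3, C8b in 4, Cd36 in 5 and Lmod2 in 6. Apart from Lmod2, the sizes therefore rest in part on values near background. Erdr1, which the rule for naming genes leaves out because it was missed in some hearts of both ages, was chosen after its values were seen. It had a difference of -2.04 log2 units but ranged from 4.69 to 6.87 at 48 weeks and from 5.81 to 9.11 at 32 weeks, so its hearts overlapped (adjusted p = 0.00222, not past the threshold in the fit on the 12 arrays).

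The increases were smaller. Slc22a20, an organic anion transporter, lay at 6.86, 7.14 and 7.53 at 48 weeks and at 5.07, 6.00 and 6.54 at 32 weeks (1.19 ± 0.20, adjusted p = 5.85e-05), and it was the only one of the 14 largest increases whose hearts did not overlap. Gtf2f1, a subunit of the general transcription factor TFIIF, lay at 6.09, 6.61 and 7.43 at 48 weeks and at 5.18, 5.53 and 6.19 at 32 weeks (1.12 ± 0.20, adjusted p = 8.73e-05). Kat7, a histone acetyltransferase, lay at 6.50, 6.90 and 7.37 at 48 weeks and at 5.48, 5.99 and 6.57 at 32 weeks (0.86 ± 0.15, adjusted p = 7.09e-05). All 14 were detected in all 6 of the 48-week hearts, but in only 1 to 5 of the 32-week hearts. Klk1b26, a member of a family of near-identical kallikrein genes, was 1.12 log2 units higher, the magnesium transporter gene Slc41a2 1.08, the annexin gene Anxa8 1.02 and the muscarinic receptor gene Chrm3 1.00. Gtf2f1, Slc22a20, Kat7 and these 4 genes passed the threshold under the 11 other settings that tested them, median centring included, and were left out by the filter on probes detected on all 12 arrays. The other 7 did not pass with median centring. They were the lipid-regulating nuclear receptor gene Pparg at 0.81, the sodium channel gene Scn3a at 0.80, the mitotic kinase gene Plk1 at 0.77, the G protein subunit gene Gng13 at 0.77, Tdrp at 0.76, the homeobox gene Lhx6 at 0.74 and Cpt1a, the liver form of the enzyme that brings fatty acids to the mitochondria, at 0.74. Pparg lost its call with any of 5 of the 12 hearts left out, and Lhx6 with any of 9 (highest adjusted p 0.104 and 0.190).

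Chaperone genes past the threshold were all lower at 48 weeks. Of 42 measured heat shock proteins and co-chaperones 6 were lower (14.3%) and none higher, with a median over the list of 0.02 log2 units against 0.04 over all genes, so the list as a whole was not shifted. For this and every later list, the shares over all genes were 6.02% lower and 4.16% higher. Hspa5 (BiP), the main chaperone of the ER, lay at 7.93, 8.26 and 8.74 at 48 weeks and at 8.96, 9.25 and 9.57 at 32 weeks (-1.01 ± 0.17, adjusted p = 4.81e-05). Hspa4, a nucleotide exchange factor for HSP70, differed by -1.04, the HSP70 partner St13 by -0.78, the ER co-chaperone Dnajb9 by -1.12 and the co-chaperone Bag2 by -0.45. Apart from Hspa4, the hearts of the 2 ages did not overlap for these genes. The value of Dnajb9 holds 1 distant heart: its 48-week hearts lay at 5.33, 8.33 and 8.55 (lowest, median and highest), against a range of 8.77 to 9.03 at 32 weeks.

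Of 20 measured genes of the unfolded protein response 4 were lower (20%, against 6.02% of all genes) and none higher (median of the list -0.05). Besides Hspa5 and Dnajb9 these were Ern1 and Chac1. Ern1 encodes IRE1, a sensor of misfolded protein in the ER, and lay at 6.32, 6.602 and 7.46 at 48 weeks and at 7.64, 7.83 and 8.10 at 32 weeks (-1.10 ± 0.17, adjusted p = 1.03e-05). Chac1, an enzyme that degrades glutathione, differed by -1.08 ± 0.24 (adjusted p = 0.00167), and its hearts overlapped. In the fit on the 12 arrays alone, Chac1 and Dnajb9 did not pass.

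The transcription factors ATF6 and XBP1 are known to switch on ER chaperone genes, of which Hspa5 is the classical target. They act through a sequence named the ER stress response element. It was searched as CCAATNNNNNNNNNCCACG on both strands of the 300-base RefSeq promoters of GRCm38.p6, 0.119% of which hold it. Among the measured genes of the response, 5 hold it in the 150 bases before the start site. Of these 5 genes 1, Hspa5, passed the threshold, against 4 of the 20 genes of the whole list (20%). The element was in 1 of 4 promoters of response genes past the threshold (25%) and in 4 of 15 not past it (26.7%). These small counts did not separate the 2 sets. Each 150-base stretch is written 5′ to 3′ on the strand of the gene, with the element in capitals.
Hspa5, chr2:34771940-34772089 (+): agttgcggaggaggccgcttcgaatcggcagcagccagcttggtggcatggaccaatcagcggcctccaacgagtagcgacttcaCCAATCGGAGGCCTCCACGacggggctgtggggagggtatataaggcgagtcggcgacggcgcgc
Canx, chr11:50325674-50325823 (-): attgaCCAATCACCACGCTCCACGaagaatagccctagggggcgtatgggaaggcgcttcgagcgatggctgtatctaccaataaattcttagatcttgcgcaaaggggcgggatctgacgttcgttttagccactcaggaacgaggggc
Pdia6, chr12:17266439-17266588 (+): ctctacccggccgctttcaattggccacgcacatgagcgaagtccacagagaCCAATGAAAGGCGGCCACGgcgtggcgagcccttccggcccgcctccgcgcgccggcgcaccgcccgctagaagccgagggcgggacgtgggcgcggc
Hsp90b1, chr10:86705445-86705594 (-): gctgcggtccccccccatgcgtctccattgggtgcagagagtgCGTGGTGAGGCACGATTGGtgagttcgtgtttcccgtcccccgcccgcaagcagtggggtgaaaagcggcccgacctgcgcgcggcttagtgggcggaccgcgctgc
Creld2, chr15:88819496-88819645 (+): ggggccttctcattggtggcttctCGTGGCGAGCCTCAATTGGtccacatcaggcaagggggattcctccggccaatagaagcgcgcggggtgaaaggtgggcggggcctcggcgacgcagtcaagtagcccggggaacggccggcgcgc

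Of these 5 genes, the lectin chaperone Canx had a difference of -0.31 (adjusted p = 0.238), the disulphide isomerase Pdia6 of -0.30 (adjusted p = 0.367), the ER HSP90 Hsp90b1 of -0.12 (adjusted p = 0.560) and Creld2 of 0.03 (adjusted p = 0.929). A match is a description of the letters and not of a bound factor. The heat shock element, searched as GAANNTTC and TTCNNGAA on both strands, stands in 15.1% of all these promoters. It was in none of the promoters of 4 of the heat shock genes past the threshold (Hspa5, Hspa4, Dnajb9 and Bag2). Hsp90aa1 and St13, which also passed, had no promoter sequence here and were not searched. Among measured list members that did not pass, 17 of the 45 promoters of 33 genes held it. With Hsp90aa1 and St13 missing, no comparison is drawn from these counts.

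Of 32 complex I subunits 3 were lower and 1 higher, and of 37 subunits of complexes II to V 6 were lower and 1 higher, against 6.02% lower and 4.16% higher over all genes. Most members lay slightly above 0, 21 of 32 and 27 of 37, and the medians of both lists, 0.04 and 0.06, were close to that of all genes. Ndufb4, an accessory subunit of complex I, lay at 9.86, 10.27 and 10.50 at 48 weeks and at 10.81, 11.18 and 11.38 at 32 weeks (-0.92 ± 0.15, adjusted p = 3.99e-05). Its relatives Ndufb5 and Ndufb9 differed by -0.59 and -0.49, while Ndufa3 was higher by 0.26, though not past the threshold with median centring (adjusted p = 0.266). Atp5k, a subunit of the ATP synthase, lay at 10.83, 10.98 and 11.33 at 48 weeks and at 11.58, 11.94 and 12.08 at 32 weeks (-0.86 ± 0.16, adjusted p = 0.000318). The ATP synthase subunits Atp5a1 and Atp5e differed by -0.72 and -0.66, and the cytochrome oxidase subunit Cox7b by -0.84. None of these genes had hearts of the 2 ages that overlapped.

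In the citric acid cycle and its pyruvate entry, 4 of 22 genes were lower and none higher, while 14 members lay above 0 (median 0.04). Mdh2, mitochondrial malate dehydrogenase, lay at 12.65, 12.81 and 12.89 at 48 weeks and at 13.37, 13.46 and 13.52 at 32 weeks (-0.65 ± 0.14, adjusted p = 0.00184). The other 3 were Pdk4, the kinase that shuts pyruvate out of the cycle, at -1.09, fumarase (Fh1) at -0.48 and Idh2 at -0.37. For all 4, every 48-week heart was below every 32-week heart, but Fh1 lost its call with any of 2 hearts left out (highest adjusted p 0.0576), Idh2 with any of 6 (0.0687) and Pdk4 without 48-week heart 3 (0.0603). Of 43 genes of fatty acid use 5 were lower and 1 higher (median -0.04). The lower ones included, besides Cd36, the isomerase Eci2 at -1.28, the thioesterase Acot13 at -0.75 and the dehydrogenase Hadh at -0.43. The higher one was Cpt1a.

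Of 25 genes of glycolysis, glucose uptake and glycogen 3 were higher and none lower, the median was 0.09, and 22 members lay above 0. Aldolase A (Aldoa) lay at 14.27, 14.31 and 14.36 at 48 weeks and at 13.98, 14.15 and 14.20 at 32 weeks (0.20 ± 0.06, adjusted p = 0.0187), with no overlap. The phosphofructokinase Pfkp was higher by 0.47 and Gapdh by 0.19. With median centring, or with only the 12 arrays in the fit, none of the 25 genes passed. Aldoa also lost its call without 32-week heart 5 or 6, Pfkp with any of 5 hearts left out and Gapdh with any of 8 (highest adjusted p 0.0591, 0.105 and 0.104).

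Genes of contraction and calcium handling were mostly near 0. Of 23 sarcomere genes, Lmod2 was lower and Mybpc3, the myosin-binding protein of the thick filament, was higher. Mybpc3 lay at 12.69, 12.74 and 12.85 at 48 weeks and at 12.28, 12.36 and 12.57 at 32 weeks (0.36 ± 0.11, adjusted p = 0.0259). It did not pass with median centring or with any of 4 hearts left out (highest adjusted p 0.0589). Creatine kinase (Ckm) was also higher, by 0.36 ± 0.07 (adjusted p = 8.04e-04), but not with median centring. Of 25 genes of calcium handling and ion channels 4 were lower and none higher (median -0.01). Calm2, 1 of 3 genes for calmodulin, lay at 8.16, 8.36 and 8.71 at 48 weeks and at 9.13, 9.33 and 9.59 at 32 weeks (-0.97 ± 0.14, adjusted p = 2.15e-06). The calcium release channel gene Ryr2 differed by -0.43, the KATP channel subunit gene Abcc9 by -0.46 and the potassium channel gene Kcnd2 by -0.64. Kcnd2 lost its call with any of 3 hearts left out (highest adjusted p 0.119), and Ryr2 and Kcnd2 in the fit on the 12 arrays.

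**Figure D2:**
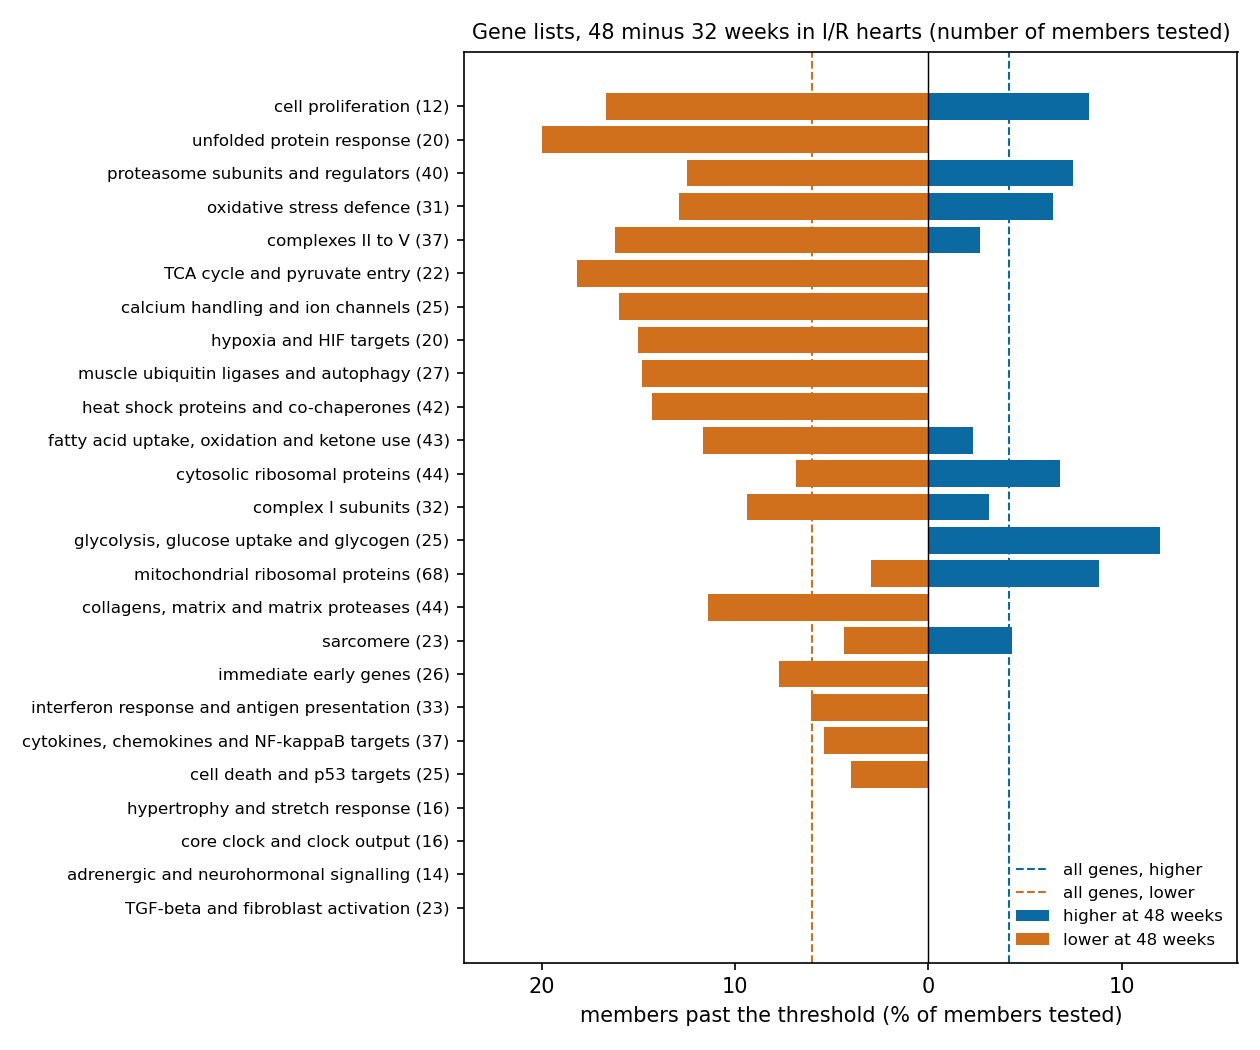
Share of the measured members of 25 gene lists past the threshold, in % of members tested (number in brackets). Bars to the right are members higher at 48 weeks, bars to the left members lower, and dashed lines mark the shares over all genes, 4.16% and 6.02%. The unfolded protein response has 20% of its 20 members lower, and glycolysis 12% of its 25 members higher.

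Of 40 proteasome genes 5 were lower and 3 higher, against 6.02% lower and 4.16% higher over all genes, and 27 members lay above 0 (median 0.08). Psmc6, an ATPase of the regulatory particle, lay at 5.16, 5.48 and 6.00 at 48 weeks and at 6.23, 6.88 and 7.18 at 32 weeks (-1.32 ± 0.18, adjusted p = 9.62e-07). Its 48-week mean of 5.50 was as low as that of Hsp90aa1 (5.57), which was not above background, so the size is uncertain. Its relatives Psmd6, Psmd14 and Psmc2 differed by -0.87, -0.78 and -0.61. Of 27 ubiquitin ligase and autophagy genes 4 were lower and none higher, namely the cargo receptor Nbr1 at -0.72, the autophagosome proteins Gabarapl2 at -0.80 and Map1lc3b at -0.32 and the cathepsin Ctsb at -0.24. Ctsb lost its call with any of 7 hearts left out (highest adjusted p 0.107). Of 44 genes of collagens, matrix and matrix proteases 5 were lower and none higher, although the median of the list was 0.09. Sparc, a collagen-binding protein, lay at 8.29, 8.72 and 8.93 at 48 weeks and at 9.29, 9.59 and 9.77 at 32 weeks (-0.87 ± 0.15, adjusted p = 4.44e-05). The protease Adamts1 differed by -1.19, the collagen gene Col3a1 by -1.15, Sparcl1 by -0.85 and the proteoglycan Ogn by -0.67.

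The early stress and inflammatory lists were close to the background at this step. Of 37 cytokine, chemokine and NF-kappaB target genes 2 were lower, and of 26 immediate early genes 2. Nfkbia, the inhibitor that ends NF-kappaB signalling, lay at 8.40, 8.66 and 9.17 at 48 weeks and at 9.35, 9.71 and 10.06 at 32 weeks (-1.02 ± 0.19, adjusted p = 2.85e-04), with no overlap. The prostaglandin synthase Ptgs2 differed by -0.68, the transcription factor Klf4 by -0.77 and Gadd45b by -0.65. Ptgs2 lost its call with any of 4 hearts left out and Gadd45b with any of 8 (highest adjusted p 0.105 for both). Of 33 interferon response and antigen presentation genes 2 were lower (6.06%, against 6.02% of all genes), the class I gene H2-K1 at -1.01 and Ifi47 at -0.84. Of 31 genes of oxidative stress defence 4 were lower, catalase (Cat) at -0.81, the selenium carrier Selenop at -0.78, the glutathione transferase Gsta1 at -0.65 and thioredoxin reductase (Txnrd1) at -0.60, and 2 were higher.

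In the hypoxia list 3 of 20 genes were lower, Higd1a, Pdk4 and the repressor Mxi1, which differed by -0.88. Of 12 proliferation genes Pcna, the replication clamp, was lower by 1.34 and Mcm6, a helicase subunit, by 0.71, while Plk1 was higher. The probe of Pcna was detected in 2 of 6 hearts at 48 weeks and in all 6 at 32 weeks, so the size is uncertain. Mcm6 lost its call with any of 4 hearts left out (highest adjusted p 0.117). Of 25 cell death genes 1 was lower (4%, against 6.02% of all genes), the caspase inhibitor Birc2, at -0.77. Of 68 mitochondrial ribosomal protein genes 6 were higher and 2 lower, and the median was 0.12, with 59 members above 0. Mrps27 was higher by 0.31 and Mrpl40 by 0.24, while Mrpl13 and Mrpl39 differed by -0.68 and -0.69. With median centring only 2 genes of this list passed. Of 44 cytosolic ribosomal protein genes 3 were higher and 3 lower. No gene passed in the lists of the core clock (16 tested), TGF-beta signalling (23), the hypertrophy response (16) or adrenergic signalling (14). Cidea, a lipid droplet protein counted among the adipocyte markers, was higher by 0.40 ± 0.09 (adjusted p = 0.00192), and not with median centring.

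The genes lower at 48 weeks were largely those with higher levels in I/R than in normoxic young hearts. The I/R difference was taken from the 8-week and 16-week hearts, I/R minus normoxic, which share no array with the 48-week and 32-week hearts. These I/R and normoxic arrays also differed in quality. At 8 and 16 weeks the median background was 157 and 173 in I/R hearts, against 129 and 132 in normoxic hearts. Median detected probes were 13154 and 12894.5 against 14198.5 and 14078, and mean RIN 8.08 and 8.03 against 8.52 and 8.75. The part of this in the I/R difference was not tested. Of the 443 genes lower at 48 weeks, 422 (95.3%) had been higher in I/R than in normoxic young hearts, against 47.8% of all genes. Of the 306 genes higher at 48 weeks, 218 (71.2%) had been lower in I/R, against 52.2% of all genes. Among the 165 genes more than 2 log2 units higher in I/R than in normoxic young hearts, 126 (76.4%) were lower at 48 weeks. None of the 165 was higher, and their median was -0.65. Among the 522 genes with an I/R difference of 1 to 2 log2 units, 196 (37.5%) were lower at 48 weeks and 1 was higher. Across genes, which are not independent replicates, the age step correlated with the I/R difference at r = -0.52. For normoxic hearts of the same ages the value was 0.02.

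**Figure D3:**
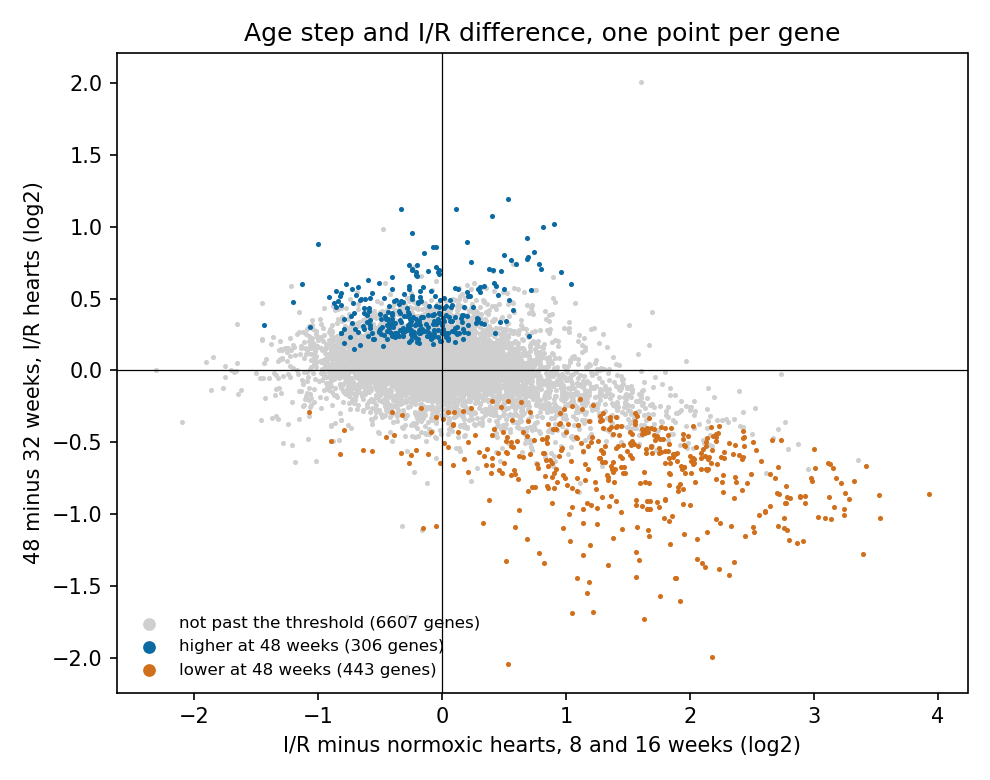
The 48-minus-32-week difference in I/R hearts (vertical, log2) against the I/R minus normoxic difference at 8 and 16 weeks (horizontal, log2). Each point is 1 of 7356 genes, coloured by whether it passed the threshold. Of 165 genes beyond 2 on the horizontal axis 126 are lower at 48 weeks and none is higher.

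To give this per heart, each array was projected on the I/R difference of the young hearts, on a scale where the mean of the young normoxic hearts is 0 and that of the young I/R hearts is 1. This I/R score was chosen after the data had been seen. It was 0.890 ± 0.0377 (SD, n = 6) in 48-week and 1.10 ± 0.0343 (SD, n = 6) in 32-week I/R hearts. The highest 48-week heart, at 0.958, was below the lowest 32-week heart, at 1.04 (exact two-sided permutation p = 0.00216, the smallest that 924 splits can give). In normoxic hearts the score was 0.0217 ± 0.0537 at 48 weeks and 0.0175 ± 0.0780 at 32 weeks (SD, n = 6 each). With median centring the difference in I/R hearts was -0.0535 (exact p = 0.128), so the call did not hold with that scaling. The number of detected probes was also lower in the 48-week I/R hearts, as given above, and its part in the score was not tested.

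**Figure D4:**
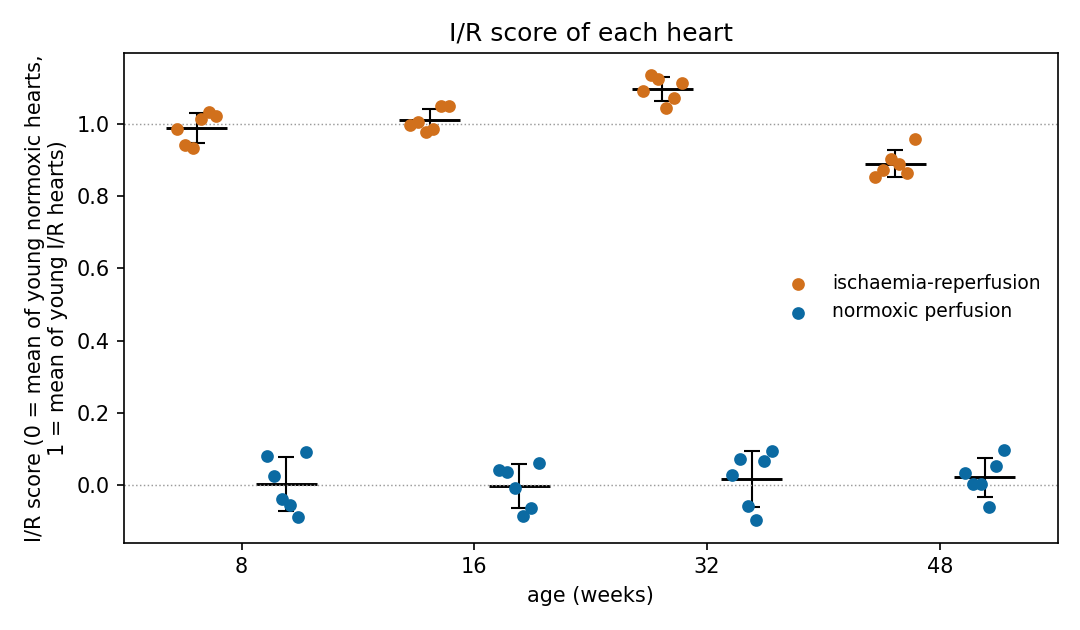
I/R score of each of the 48 hearts by age in weeks, I/R hearts in orange and normoxic hearts in blue. Points are hearts, and lines and bars are the mean ± SD of 6 hearts. The 48-week I/R hearts lie between 0.853 and 0.958, below all 32-week I/R hearts, which lie between 1.04 and 1.14.

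Several named genes did not follow a steady course over the 4 ages in I/R hearts. The means of the I/R score for the 4 ages, youngest first, were 0.989, 1.01, 1.10 and 0.890. The first 2 lie near 1 by construction, since the scale is set on those hearts, so the score cannot show a course over the 4 ages. The Hsp90aa1 level had means of 7.00, 6.86, 7.56 and 5.57 at these ages, the last not above background. That of Bptf had means of 6.52, 6.31, 7.35 and 5.80, the last near background, with the probe detected in 1 of 6 hearts. Hspa5 had means of 9.51, 9.37, 9.27 and 8.26, so that its level changed past the threshold at the last step only. Kat7 had means of 7.22, 7.33, 6.05 and 6.91, and Ckm 13.71, 13.57, 12.71 and 13.07, with a decrease at 32 weeks before the increase at 48 weeks. The step from 16 to 32 weeks had 3403 genes past the threshold (46.3%) and that from 8 to 16 weeks 168 (2.28%). The step into the 32nd week shares the 32-week hearts with the present comparison, and no overlap between them is given. In a principal component analysis of the 24 I/R arrays, the first component (30.8% of the variance) separated 8 and 16 weeks from 32 and 48 weeks. The next (8.78%) separated the 48-week hearts, at -13.6 to -8.46, from the 32-week hearts, at 8.53 to 15.8.

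The same age step left no gene past the threshold in normoxic hearts (limma, 0% of 7356, with 439 at an unadjusted p under 0.05). The difference between the steps, I/R minus normoxic, passed for 184 genes (2.5%), 35 with a higher and 149 with a lower step in I/R hearts, and with median centring 3 with a higher and 193 with a lower step. The smallest p-values belonged to Hsp90aa1, Higd1a, Morf4l1b, Bptf, Laptm4b and Pcna. The probes of Hsp90aa1, Higd1a and Laptm4b were detected in none of the 48-week I/R hearts and on none of the 12 normoxic arrays, so the size of their difference between the steps was not measured. Those of Morf4l1b and Bptf were also detected on none of the 12 normoxic arrays. Their normoxic step was therefore not measured, and their difference between the steps rests on the I/R step. In that step the probe of Bptf was detected in 1 of 6 hearts at 48 weeks. Lmod2 differed by -1.42 between the ages in I/R hearts and by 0.24 in normoxic hearts (difference -1.66 ± 0.28, adjusted p = 2.93e-04). Of the immediate early genes, 12 of 26 members lay above 0 in I/R hearts with a median of -0.01, and in normoxic hearts 24 of 26 with a median of 0.40, although no member passed in normoxic hearts. The difference between the steps passed for Egr1, Egr2, Csrnp1 and Gadd45b, at -0.66, -1.12, -1.04 and -1.11. For the cytokine list the medians were 0.01 in I/R and 0.42 in normoxic hearts, and the difference passed for Nfkbia at -1.59 and Il6 at -1.40.

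Many of the decreases belonged to probes that were rarely detected in normoxic hearts. Of the 443 lower genes, 91 (20.5%) were detected on at most 1 of the 12 normoxic arrays of 48 and 32 weeks, against 2.29% of the higher genes and 2.53% of all genes. Among the 14 largest decreases, the probes of Hsp90aa1, Higd1a, Laptm4b, Bptf, Hipk1, Pom121, Rpl22l1 and Tjp1 were detected on none of the 12. With only probes that all 12 normoxic arrays detected, a setting added after the data had been seen, 354 genes passed, 192 higher and 162 lower.

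A gene measured by several probes gave a check on these values, since 1602 genes had another detected probe. Of the 749 genes past the threshold 144 did, and the next brightest probe moved in the same direction for 76 and in the opposite direction for 68. It passed the threshold itself for 15. In 14 of these the direction was the same, and in Chmp2a it was opposite (0.24 for the brightest probe and -0.41 for the next). Over all 1602 pairs the direction was the same for 56.4% in I/R hearts (95% exact binomial interval 53.9% to 58.8%) and for 62.4% in normoxic hearts. The correlation across pairs was 0.09 in I/R hearts and 0.53 in normoxic hearts, and among the 455 pairs with both probes brighter than the median gene it was 0.15 and 0.72. Pairs are not independent replicates, and these values carry no test. The difference between the 2 probes in the age step correlated at -0.62 with their difference in the I/R minus normoxic values of young hearts.

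**Figure D5:**
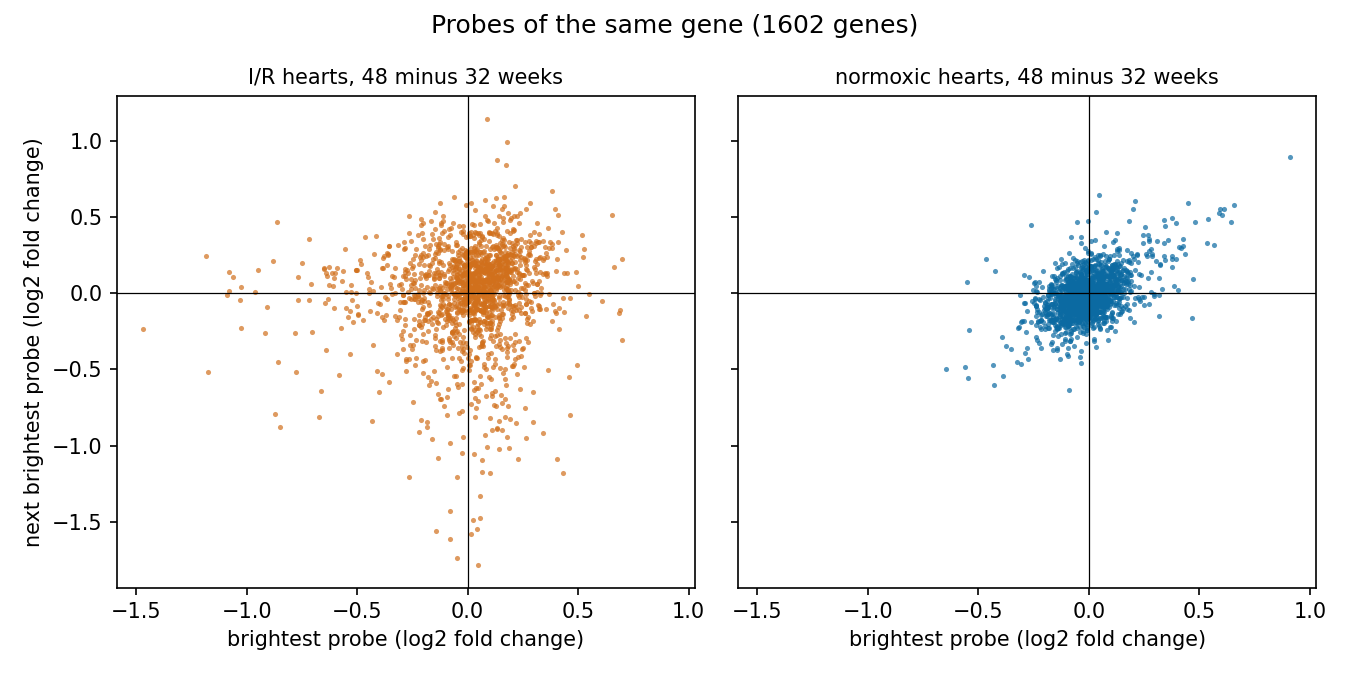
Log2 fold changes of the brightest probe (horizontal) and of the next brightest probe (vertical) of 1602 genes, 48 minus 32 weeks. The left panel shows I/R hearts, where large changes of either probe stand beside values near 0 of the other (r = 0.09), and the right panel normoxic hearts (r = 0.53).

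The disagreement reached named genes. The next brightest probe of Hipk1 differed by -0.23 (adjusted p = 0.346), that of Atp5a1 by -0.04 (adjusted p = 0.888), that of Ryr2 by 0.02 (adjusted p = 0.972), that of Adamts1 by 0.25 (adjusted p = 0.551) and that of Klf4 by 0.11 (adjusted p = 0.807). Those of Abcc9, Nbr1, Mcm6, Kcnd2, Ctsb and Gapdh did not pass either. Of the 28 largest differences only Hipk1 had another detected probe, so the others could not be checked in this way. Both probes passed with the same sign for Psmd6 (-0.87 and -0.80), Ogn (-0.67 and -0.82), Hadh (-0.43 and -0.84), Atp5k (-0.86 and -0.45), Spin1 (-0.78 and -0.52) and Nit1 (-0.25 and -0.34) among the decreases. Among the increases these were the glutaminyl-tRNA synthetase Qars (0.26 and 0.22), Nqo2, Fahd2a, Yif1a, Rpl7l1, Ubxn6, Emp3 and Eif2b5, all between 0.21 and 0.68. Probe sequences were not used here. Values of Klk1b26, Morf4l1b, Gapdh and the ribosomal protein genes, which have near-identical relatives, are therefore uncertain as to the gene.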

How the data were processed

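The authors deposited a signal intensity for each of 46624 probes on 48 arrays, not normalized per the file headers, with a detection column. That column rises with the signal, so it was read as a fraction equal to 1 minus the detection p. A table of log2 values processed by the authors, with lumi named in the submitters' processing notes without a version, served as an alternative. Its columns have medians of 7.812 to 7.83. Set against the signals of the same array they rise with slopes of 0.969 to 1.03 on the log2 scale, without centring by gene. Their normalization is not given in the sources used here. The array limits precision through the number of hearts.

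Signals were background-corrected from the detection p (offset 16), quantile-normalized over 48 arrays and taken to log2 with limma 3.58.1 in R 4.3.3. A probe was tested if detected (p under 0.05) on at least 6 of the 12 arrays compared, and a gene was its brightest such probe. By the platform annotation 29971 probes had 1 symbol, 10 had several and 16643 had none. Of the symbols, 29916 were updated by Entrez number. Of 11766 probes kept, 2415 had no symbol. All 8 groups entered 1 limma model (lmFit, eBayes), with Benjamini-Hochberg adjustment over 7356 genes. The labels number the samples of a group but do not describe how the animals were drawn, so p-values measure the spread between these samples. For a probe detected in no heart of a group, the fold is a bound: the bright group's mean against the dim group's mean, where a dim array counts with its dimmest detected probe, or with the probe itself if that is brighter.

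Genes were named by a rule: the 14 largest differences in each direction that passed and were detected on all 6 arrays of an age, up to 4 members per list by p, and the 6 smallest p of the difference between steps. The members and lists were chosen with earlier results of these data known. No replicate was excluded, and no 2 arrays held identical values. The fit was tested on simulated data. The alternatives are given in the closing section. Promoter sequences are RefSeq's.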

Additional observations from a re-analysis of the deposited data

Results flagged for a closer look

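Among the values of 103 measures checked in each age group, 11 single hearts of 206 groups stood far from the other 5 hearts of their age, by the gap to the nearest heart as a share of the range of the group. Chance alone flags about 1 in 20 groups. In 48-week hearts these were heart 1 for Klk1b26 (7.49 log2 units), heart 3 for Kcnd2 (6.405), heart 4 for Chac1 (8.57), and heart 6 for Dnajb9 (5.33), Adamts1 (6.81) and Txnrd1 (6.26). The RNA integrity number of 48-week heart 4 was 7.8. In 32-week hearts they were heart 4 for Pom121 (6.44), heart 3 for Gsta1 (7.19), and heart 1 for Ogn (7.86) and Txnrd1 (7.24).

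Of the 99 genes given with values, 45 had an age step that differed between I/R and normoxic hearts (limma, adjusted p under 0.05 for the difference between the steps), against 2.5% of all genes, and most of these 99 genes were named because they had passed in I/R hearts. The step was lower in I/R hearts for 39 of them. Hsp90aa1, Laptm4b and Higd1a had fitted values of -2.05, -1.76 and -1.69, but their probes were detected in none of the 48-week I/R hearts and on none of the 12 normoxic arrays, so these values are not measured sizes. On the log2 scale the other fitted differences, in part from probes detected in few hearts, included C8b -1.75, Lmod2 -1.66, Nfkbia -1.59, Pcna -1.59, R3hdm2 -1.53, Bptf -1.52, Hipk1 -1.51, Cd36 -1.49, Adamts1 -1.45, Pom121 -1.44, Psmc6 -1.43 and Tanc1 -1.41. Smaller ones were Gramd4 -1.30, Tjp1 -1.24, Eci2 -1.20, Morf4l1b -1.20, Rpl22l1 -1.17, Gadd45b -1.11, Hspa5 -1.10, Calm2 -1.07 and Psmd6 -1.02. Below 1 log2 unit in size were Ern1 -0.95, H2-K1 -0.95, Gsta1 -0.95, Mxi1 -0.89, Ndufb4 -0.88, Spin1 -0.87, Atp5e -0.83, Atp5k -0.82, Cox7b -0.82, Mrpl13 -0.80, Txnrd1 -0.80, Selenop -0.79, Atp5a1 -0.77, Psmc2 -0.75 and Nbr1 -0.63. The 6 with a higher step in I/R hearts were Slc22a20 1.38, Gtf2f1 1.24, Kat7 1.01, Anxa8 1.00, Ckm 0.44 and Mrps27 0.41. The tested probes of Bptf, Hipk1, Pom121, Psmc6, Tjp1, Eci2, Morf4l1b, Rpl22l1, Txnrd1 and Anxa8 were detected on none of the 12 normoxic arrays. Their normoxic step was therefore not measured, and their fitted differences are not measured sizes.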

How the results depend on the processing

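The 749 genes past the threshold became 494 with only the 12 arrays compared in the fit, 191 with the next brightest probe of 1602 genes, 1262 with each of 11766 probes tested singly and 354 with only probes detected on the 12 normoxic arrays. Under the other settings they numbered 512 to 824, and with 1 heart left out 597 (without 32-week heart 6) to 785 (without 32-week heart 1). The 184 genes of the difference between the steps became 281 without background correction, 303 in the authors' values and 111 with probes detected on all 12 arrays, and 152 to 253 with 1 heart left out. The score difference of -0.207 was -0.0535 with median centring and -0.222 to -0.198 with 1 heart left out. Probe pairs had the same direction in 66.3% with median centring, where the median of all genes was -0.10, and in 59.2% with probes detected on all 12 arrays. The correlation across pairs was 0.096 and 0.12 under these settings, against 0.090 in the main one. When the filter counted detection over all 48 arrays, another probe became the brightest for Abcc9 (0.14), Adamts1 (0.25) and Mcm6 (0.061), which reversed them. Of the 99 genes given with values, 7 of 25 higher and 72 of 74 lower ones passed with median centring. Same-numbered hearts correlated at -0.0605 to 0.0799 and 1 of 6 matched its own number best. No pairing by number was seen, although 6 pairs cannot exclude a weak one. The fit with the replicate number as a block called 762 genes (713 shared) and 219 for the difference between the steps. Probes near background give bounds only, and the labels used here name no slide or scan batch.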
